A study of Mus musculus with 8 samples.

Results

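Oxidized small RNA of MIN6B1 cells carrying a control plasmid was compared with oxidized small RNA of the same cells carrying a plasmid for the HENMT1ΔC-T6B methyltransferase. MIN6B1 is a mouse insulinoma line with features of pancreatic beta cells. Members were taken from the annotation hits of the count table: 174 mature miRNAs, each the sum of its reads over all sequences with that hit, and 22 tRNA isotypes summed the same way. They held 1491 of the 11568 distinct sequences listed. Of the mature miRNAs, 168 had a name of their own and 6 joined the names of miRNAs that share a sequence. The comparison used 4 of the 8 libraries of the series, 2 with each plasmid. All cells had been transfected with Lipofectamine 2000, and the RNA of both groups had been treated with sodium periodate before cloning. The other 4 libraries came from the same kinds of cells without oxidation, 2 with the control plasmid and 2 with the methyltransferase plasmid. The share of cells that took up a plasmid is not given in the sources used here, so more methylating cells and more methylation per cell cannot be told apart in total RNA. The labels do not say that replicates were separate cultures, so p-values measure only the spread between these libraries, which may be technical.

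Mature miRNAs are held in Argonaute proteins, with the 3′ end in one pocket of the protein and the seed, bases 2 to 8, exposed for pairing with target RNAs. HENMT1 is an enzyme that adds a methyl group to the 2′ oxygen of the last nucleotide of a small RNA, in animals mainly on piRNAs, and T6B is a peptide of the GW182 protein TNRC6B that binds Argonaute. Periodate destroys a free 3′ end, one with both its hydroxyl groups, and so prevents adapter ligation there, while a methylated 3′ end is left intact. Mammalian miRNAs normally lack this methyl group. tRNAs, which carry amino acids to the ribosome, end in CCA and are not held by Argonaute as a class.

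The most abundant miRNAs of oxidized methyltransferase RNA belonged to the let-7 family, which share the seed shown in capitals. The sequences below are mature miRNAs from RefSeq (GRCm38.p6), where 147 of the 168 singly named miRNAs were matched; let-7c-5p is encoded at chr16:77599672-77599693 (plus strand, Mirlet7c-1) and chr15:85706616-85706637 (plus strand, Mirlet7c-2), both miRNA genes. They are shown because members of one seed family differ by few bases, so that a read with an error, or a read cut short, can be counted for a sister miRNA.
let-7c-5p: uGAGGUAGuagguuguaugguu
let-7b-5p: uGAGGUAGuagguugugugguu
let-7a-5p: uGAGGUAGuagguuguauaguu
let-7i-5p: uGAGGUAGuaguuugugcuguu
let-7f-5p: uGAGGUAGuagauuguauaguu
let-7g-5p: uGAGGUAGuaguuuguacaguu
miR-7a-5p: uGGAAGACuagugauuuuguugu
miR-7b-5p: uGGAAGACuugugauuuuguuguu
miR-200c-3p: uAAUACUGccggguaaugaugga
miR-141-3p: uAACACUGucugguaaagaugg
miR-16-5p: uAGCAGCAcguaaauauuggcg

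Counts of listed sequences came to 438363 and 295094 with the control plasmid and to 3100971 and 2446036 with the methyltransferase, all after oxidation. After scaling (trimmed mean of M values, TMM), the effective library sizes were 3089778 and 2132167 for control and 2703894 and 2167488 for methyltransferase. Fold changes below use these sizes; the counts given beside them are raw. The listing itself was selected: every sequence reaches 2 reads or more in both oxidized methyltransferase libraries and 10 or more over the pair, a minimum that no other group meets. This selection favours higher values with the methyltransferase. All 10 endocrine marker miRNAs were listed, and they made up 29.5% to 30.3% of mature miRNA counts in non-oxidized control RNA. Of the markers of blood cells (7), muscle (4), mesenchyme (5) and acinar cells (3), none was listed. Of the other 5 (hepatocyte, endothelial and neuronal), 4 were listed, and together these made up at most 0.121% of mature counts in any library. The blood marker miR-451a was sought by a name without an arm, while only names with an arm were taken, so it could not be found.

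After oxidation, mature miRNA counts were 13643 and 10011 with the control plasmid and 2045615 and 1643130 with the methyltransferase. tRNA counts were 114670 and 78017 in the control and 70652 and 85966 with the methyltransferase. The miRNA sums did not overlap between the plasmids, and the tRNA sums did. The ratio of mature miRNA to tRNA counts, which needs no scaling between libraries, was 0.119 and 0.128 with the control plasmid and 29.0 and 19.1 with the methyltransferase after oxidation. On the log2 scale it was -3.02 ± 0.0771 (SD, n = 2) against 4.56 ± 0.424 (SD, n = 2), a difference of 7.57, or 190-fold (exact two-sided permutation test, p = 0.333, the smallest p that 2 libraries against 2 can give). In non-oxidized RNA the ratio was 25.8 and 26.1 with the control plasmid and 19.01 and 15.3 with the methyltransferase, a log2 difference of -0.60 (exact permutation p = 0.333). Sequences with a hit to a miRNA hairpin but to no mature miRNA held 374 and 459 counts in the oxidized control and 220216 and 148804 with the methyltransferase. Their position in the hairpin was not checked, so they may overlap a mature arm.

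**Figure D1:**
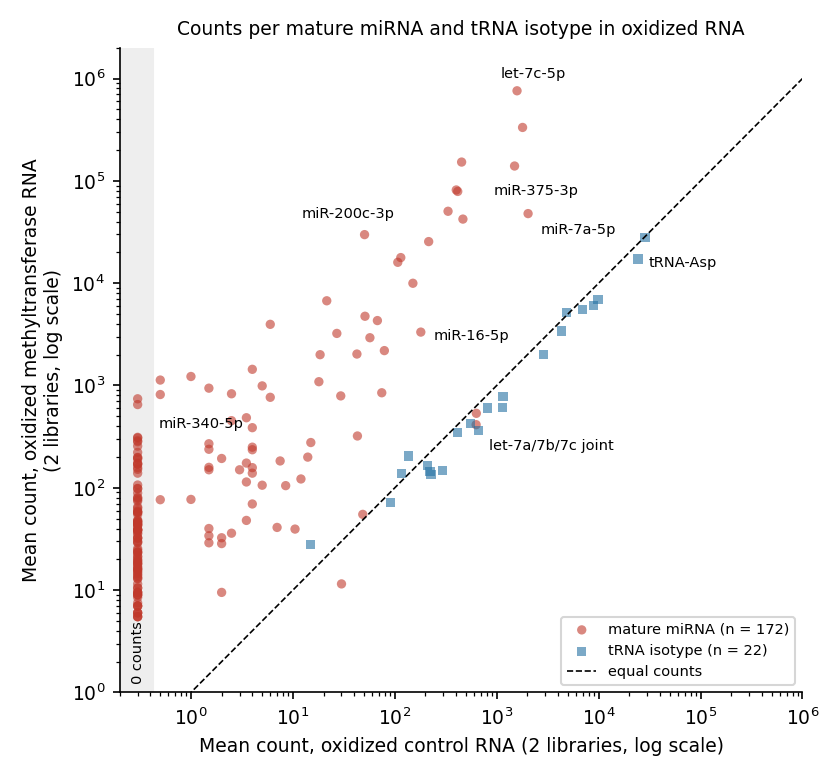
Mean count over 2 libraries in oxidized control RNA (x axis) against oxidized methyltransferase RNA (y axis), both on log scales, for the 172 tested mature miRNAs (circles) and 22 tRNA isotypes (squares); the shaded strip holds miRNAs never counted in oxidized control RNA, and the dashed line marks equal counts. tRNA isotypes lie along the line and mature miRNAs above it, apart from the joint let-7 sums and miR-203-3p.

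Of 172 mature miRNAs tested, 168 were higher and 0 lower with the methyltransferase in oxidized RNA (edgeR, adjusted p under 0.05 by Benjamini-Hochberg over 7238 features). Over all features the same test called 53.6% higher and 6.37% lower. By unadjusted p under 0.05 the counts were 168 and 0. The median fitted log2 fold change was 7.13 for mature miRNAs and 4.20 for all features, and 4.23 and 1.31 where features with at most 3 counts in each oxidized control library were set at a lower bound computed with 3 counts. Such a floor applied to 114 of the 172 mature miRNAs, and 98 had no count at all in oxidized control RNA. When sequences also had to reach the listing minimum in oxidized control RNA, 37 mature miRNAs remained, of which 27 were higher and 0 lower, where 3.96% of all 3231 features tested were higher. Of the other 2 listed miRNAs, miR-3057-5p and miR-6934-5p had too few counts to be tested (at most 11 in any library).

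The let-7 family, regulators of differentiation and growth, held 47.8% and 41.7% of mature miRNA counts with the control plasmid and 82.3% and 80.3% with the methyltransferase after oxidation. In non-oxidized RNA this share was 52.0% and 54.3% with the control plasmid and 59.9% and 62.1% with the methyltransferase. These shares leave out short sequences that several let-7 miRNAs have in common. With those included, the share in oxidized RNA was 59.8% and 51.5% with the control plasmid and 82.4% and 80.4% with the methyltransferase, and the non-oxidized shares were 52.0% and 54.3% against 59.9% and 62.2%. The control shares after oxidation, below the non-oxidized control in the first count, then lay on both sides of it. All 9 of the 9 members were called higher, where 53.6% of all features were. Their log2 fold changes ran from 6.67 (miR-98-5p) to 9.01 (let-7c-5p). let-7c-5p rose from 1870 and 1295 counts with the control plasmid to 823614 and 694965 with the methyltransferase (log2 fold change 9.01 ± 0.367 SE, edgeR adjusted p = 2.76e-07). It alone made up 41.3% of mature counts in oxidized methyltransferase RNA on average. let-7b-5p went from 2328 and 1259 to 392740 and 272717 counts (log2 fold change 7.66 ± 0.364 SE), and let-7a-5p from 573 and 332 to 170440 and 134933 (8.52 ± 0.389 SE). After scaling, all 9 members lay higher without overlap between the plasmids, as did 56.3% of all features. let-7i-5p, let-7f-5p and let-7g-5p, also among the 10 most abundant miRNAs, had log2 fold changes of 7.71, 7.67 and 7.32.

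Of 23 miRNAs on a list known from beta cells, 20 were listed and all 20 were higher, where 53.6% of all features were. Their median log2 fold change was 6.38 (4.74 with bounds). miR-375-3p, an islet miRNA that restrains insulin secretion, had 1424 and 1569 counts in the control and 125760 and 153599 with the methyltransferase (log2 fold change 6.62 ± 0.400 SE, edgeR adjusted p = 4.78e-07). miR-7a-5p, another abundant islet miRNA, had 2254 and 1808 counts in the control and 62187 and 33566 with the methyltransferase (4.61 ± 0.370 SE, edgeR adjusted p = 1.96e-06). It was the miRNA with the most counts with the control plasmid and the eighth with the methyltransferase. miR-7b-5p, which has the same seed, went from 515 and 417 to 49832 and 34777 counts (6.57 ± 0.420 SE). The endocrine markers as a group took a smaller share of mature counts with the methyltransferase, 13.0% and 15.6% against 31.6% and 39.4% in oxidized control RNA; in non-oxidized RNA their share was 23.4% and 21.8% with the methyltransferase.

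Epithelial miRNAs of the miR-200 family differed widely among themselves. miR-200c-3p had 42 and 59 counts in the control and 25853 and 33796 with the methyltransferase (log2 fold change 9.26 ± 0.536 SE, edgeR adjusted p = 4.74e-07). miR-141-3p, its neighbour on chromosome 6, had 74 and 75 counts in the control and 941 and 757 with the methyltransferase (3.56 ± 0.364 SE, edgeR adjusted p = 9.06e-06). Both were thus higher without overlap, but their fold changes lay 5.70 apart on the log2 scale. miR-200a-3p, which shares the seed of miR-141-3p, had 7 counts in each control library and 43 and 39 with the methyltransferase (2.61 ± 0.461 SE). It was not called under the equal minimum (0.77) and was at -0.39 with total counts. miR-200b-3p and miR-429-3p, with the seed of miR-200c-3p, had no count in oxidized control RNA; the lower bounds of their increase were 13.9-fold and 98.3-fold.

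Of the mature miRNAs, 51 averaged at least 50 counts with the methyltransferase and had at least 4 counts in a control library. Their log2 fold change had a median of 6.03, quartiles of 4.64 and 7.34, and a standard deviation of 2.20. The median standard error was 0.463. These 51 include 3 joint let-7 sums of short sequences. For singly named miRNAs the standard deviation was 1.53 over 30 5p arms and 1.81 over 18 3p arms. The control minimum leaves out miRNAs at the control floor. The methyltransferase minimum leaves out miRNAs with few counts there, such as miR-200a-3p (2.61), which favours higher values in this set. The largest values were those of miR-3099-3p (8 and 4 against 4581 and 3340 counts, 9.44 ± 0.520 SE), miR-200c-3p, let-7c-5p, miR-185-5p (8.55), let-7a-5p and miR-483-5p (8.42 ± 0.713 SE), the last encoded within the insulin-like growth factor 2 gene. miR-483-5p had 5 and 0 counts in the control, and its value was 12.47 without replicate 1 of the oxidized control and 7.61 without replicate 2. The smallest values of singly named miRNAs were those of miR-130b-3p (47 and 39 against 374 and 268 counts, 2.97 ± 0.367 SE), miR-26b-5p (11 and 13 against 122 in each library, 3.41 ± 0.441 SE) and miR-141-3p. Under total-count scaling miR-130b-3p was at -0.052. It was not called under the equal minimum either (1.38, edgeR adjusted p = 0.104), and was at 10.57 with its most abundant sequence alone. With total counts miR-26b-5p and miR-141-3p were no longer called. The 3 smallest values of all belonged to joint let-7 sums.

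Within other seed families the values also spread. miR-29b-3p was at 6.76 ± 0.768 SE and miR-29c-3p at 3.77 ± 0.737 SE, with miR-29a-3p at 4.87. Leaving out 1 library moved miR-29b-3p between 5.92 and 11.44 and miR-29c-3p between 2.80 and 6.29, in each case by the choice of oxidized control replicate, and total counts ended the call for miR-29c-3p (0.74). miR-26a-5p (47 and 38 against 1835 and 2224 counts) was at 5.69 ± 0.393 SE, above miR-26b-5p. In the miR-15/16 family, known to restrain cell cycle genes, miR-16-5p had 210 and 150 counts in the control and 3770 and 2882 with the methyltransferase (4.30 ± 0.305 SE, edgeR adjusted p = 9.91e-07), and miR-15b-5p was at 4.21. The value of miR-15b-5p was -0.77 under the equal minimum (edgeR adjusted p = 0.550) and 1.19, not called, with total counts. miR-16-5p ranked 6 among mature miRNAs of non-oxidized control RNA and 19 among those of oxidized methyltransferase RNA. These differences between miRNAs are descriptive, since the differences themselves were not tested.

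The largest lower bounds among miRNAs with at most 3 counts in each oxidized control library were those of miR-324-5p (2 and 0 against 1623 and 826 counts, at least 413-fold higher), miR-30a-3p (1 and 0 against 1385 and 875, at least 385-fold), miR-421-3p (at least 319-fold) and miR-30e-3p (at least 281-fold). miR-30a-3p and miR-30e-3p are the 3p arms of hairpins whose 5p arms are the better-known miR-30 family. All 5 members of that family were higher, with a median of 3.85 on the log2 scale over bounds and fold changes. By arm, all 90 of the 90 5p miRNAs and 75 of the 76 3p miRNAs tested were higher, where 53.6% of all features were. Of 8 miRNAs known as made without Drosha or Dicer or from short introns, 4 were found among the members. miR-484 and miR-451a were sought by names without an arm, while only names with an arm were taken, so neither could be found. All 4 found were higher, led in counts by miR-320-3p (56 and 79 against 4391 and 4229 counts, 6.03 ± 0.479 SE).

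**Figure D2:**
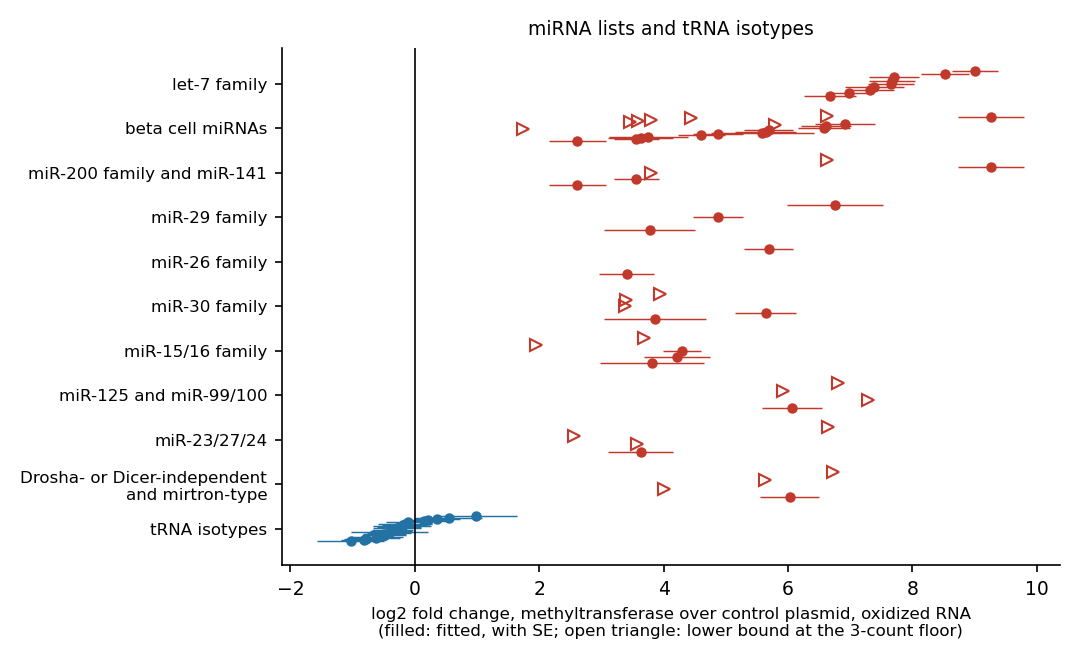
Log2 fold change of the methyltransferase over the control plasmid in oxidized RNA (x axis) for the members of 10 miRNA lists and the 22 tRNA isotypes (rows); filled points are fitted values with their standard error, and open triangles are lower bounds for miRNAs with at most 3 counts in each oxidized control library. The 9 let-7 members lie between 6.67 and 9.01, and the tRNA isotypes between -1.03 and 0.99.

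None of the 22 tRNA isotypes was called higher or lower in oxidized RNA (edgeR; by unadjusted p under 0.05, 1 lower and 0 higher). Their median log2 fold change was -0.32, the smallest adjusted p was 0.0657 (tRNA-Ser, -0.82 ± 0.356 SE), and 8 isotypes lay lower without overlap after scaling, as did 20.5% of all features, while none lay higher. tRNA-Asp, the isotype with the most counts, had 36604 and 20213 counts in the control and 23549 and 32302 with the methyltransferase (0.15 ± 0.381 SE, edgeR adjusted p = 0.764). tRNA-Lys had 26940 and 21612 against 14924 and 19473 counts (-0.38 ± 0.339 SE). tRNA-Gly, tRNA-Val, tRNA-Leu and tRNA-Glu were at -0.36, -0.50, -0.16 and 0.21. These positions depend on the scaling. Total counts move every log2 fold change by -3.02, and all 22 isotypes were then called lower, as were 4036 of all 8618 features. Upper-quartile scaling moves the log2 fold changes by -0.91, and 15 isotypes were then called lower, as were 1713 of all 8390 features. Scaling to equal tRNA counts moved the log2 fold changes by 0.19. The summed tRNA sequences with the mature CCA end lay at -0.27 and the others at -0.09. One sequence of each kind is shown, the CCA in capitals: the 22 nt piece of tRNA-Asp (anticodon GTC) had 6313 and 3169 counts in the control and 3392 and 1575 with the methyltransferase, and the 54 nt piece of tRNA-Lys (anticodon CTT) had 8541 and 7166 against 5698 and 5238.
tRNA-Asp: tcgattccccgacggggagCCA
tRNA-Lys: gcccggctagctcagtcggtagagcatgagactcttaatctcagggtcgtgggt

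The miRNA difference varied with the length of the sequence read. Sequences of 16 to 19 nt made up 53.7% and 55.1% of mature miRNA counts in oxidized control RNA, 0.370% and 0.501% with the methyltransferase after oxidation and at most 0.738% in any non-oxidized library. Mature sequences of 22 nt had 1312 and 1227 counts in the control and 1434118 and 1181602 with the methyltransferase (log2 fold change 10.07 ± 0.460 SE). Those of 20 nt had 1456 and 960 against 23821 and 19053 counts (4.26 ± 0.367 SE), and those of 19 nt had 2444 and 1686 against 4803 and 4583 (1.30 ± 0.342 SE, edgeR adjusted p = 0.00617). At 16 nt the order turned, with 1988 and 1440 counts in the control and 1004 and 1059 with the methyltransferase, but the difference was not called (-0.62 ± 0.349 SE, edgeR adjusted p = 0.154). Neither 17 nt (-0.10) nor 18 nt (-0.19) was called; each length from 19 to 25 nt was higher, where 52.5% of all features in that fit were. These calls at the short end depend on the scaling. With the upper quartile 19 nt was not called (0.38, edgeR adjusted p = 0.317), and 16, 17 and 18 nt were called lower (-1.53, -1.02 and -1.13). Total counts called 16 to 19 nt lower, from -3.64 at 16 nt to -1.72 at 19 nt. tRNA sequences of the same 16 to 24 nt lay between -0.55 and 0.18 at every length.

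**Figure D3:**
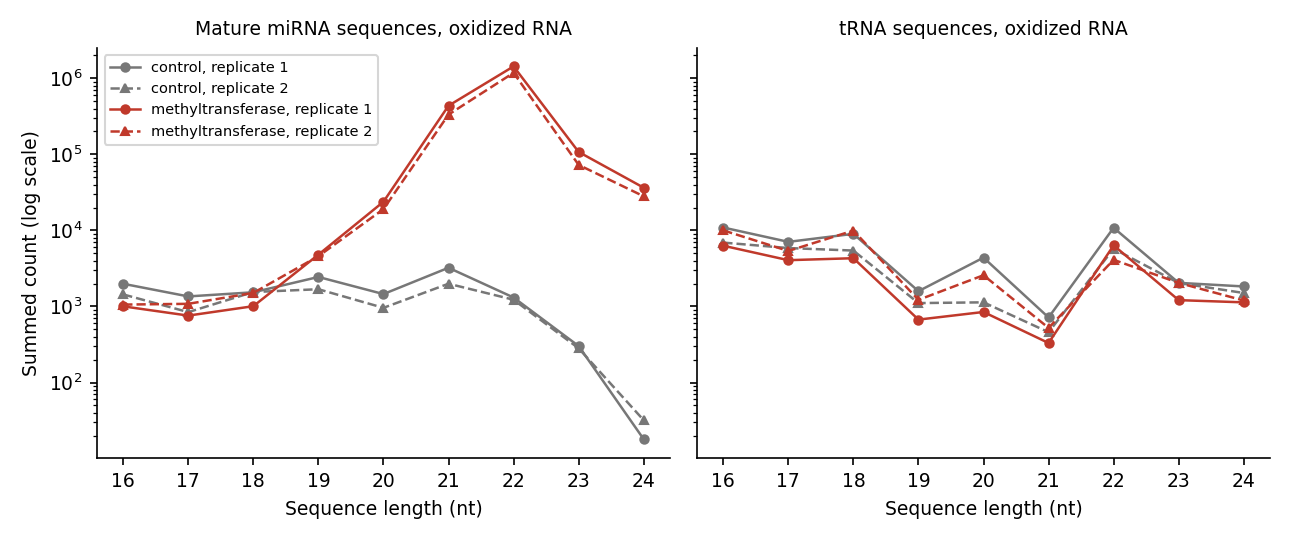
Summed counts (y axis, log scale) by sequence length in nucleotides (x axis) in the 4 oxidized libraries, for mature miRNA sequences (left) and tRNA sequences (right); lines join the values of 1 library. The miRNA lines of the plasmids run together from 16 to 18 nt and part from 20 nt on, and the tRNA lines run together throughout.

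The end at which a sequence was shortened separated sequences of like length. Each mature sequence was compared with the most abundant sequence of its miRNA in non-oxidized control RNA, called the reference, which was the RefSeq sequence for 109 of 147 miRNAs. Sequences identical to the reference had 1327 and 1301 counts in the oxidized control and 1560341 and 1262783 with the methyltransferase (log2 fold change 10.12 ± 0.478 SE, where 52.6% of all features in that fit were called higher). With the last base missing the log2 fold change was 7.30 ± 0.423 SE, with 2 bases missing 4.50 ± 0.384 SE, and with 3 missing 1.03 ± 0.350 SE (2902 and 1972 against 4566 and 4602 counts, edgeR adjusted p = 0.0236). The last of these was no longer called under upper-quartile scaling (0.12) or without either non-oxidized control library or replicate 1 of the non-oxidized methyltransferase libraries (1.01 in each), and was at -1.99 with total counts. With 4 or more missing it was -0.24 ± 0.365 SE and not called (3292 and 2867 against 2169 and 2681 counts, edgeR adjusted p = 0.600), but was called lower by upper-quartile (-1.17) and total-count scaling (-3.26). The descent over these steps does not depend on scaling between libraries: the ratio of reference to 3-base-shortened counts was 0.457 and 0.660 in oxidized control RNA, 274 and 342 with the methyltransferase after oxidation and between 150.1 and 181 in the 4 non-oxidized libraries.

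Loss of bases at the 5′ end gave another picture. Sequences lacking 1 base there had 4 and 17 counts in the oxidized control and 8757 and 7485 with the methyltransferase (log2 fold change 9.57 ± 0.746 SE). This value was 8.69 without replicate 1 of the oxidized control and 11.24 without replicate 2. Those lacking 2 or more had 0 and 0 against 331 and 274 counts (at least 105-fold higher). Pooled over 16 to 20 nt, 3′-shortened sequences had 7039 and 5397 counts in the control and 27605 and 23643 with the methyltransferase. The 5′-shortened ones had 0 and 0 against 318 and 295. At 16 to 18 nt the raw counts were 3232 and 2786 against 1813 and 2390 (3′-shortened) and 0 and 0 against 37 and 60 (5′-shortened). At 19 to 20 nt they were 3807 and 2611 against 25792 and 21253, and 0 and 0 against 281 and 235. Of single sequences of 16 to 19 nt, 24 of 77 with a shortened 3′ end and 7 of 7 with a shortened 5′ end were called higher, where 50.7% of all sequences tested singly were; all 7 of the latter had at most 3 counts in each oxidized control library, and the listing minimum applies to the methyltransferase libraries alone. Sequences extended at the 3′ end were at 7.25 ± 0.552 SE.

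**Figure D4:**
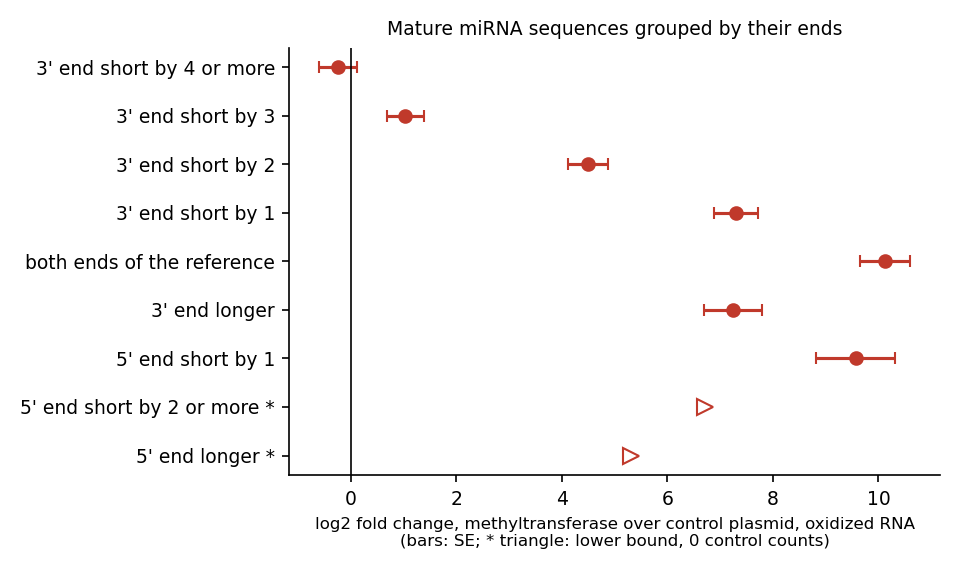
Log2 fold change of the methyltransferase over the control plasmid in oxidized RNA (x axis) for mature miRNA sequences summed by how their ends differ from the most abundant sequence of the same miRNA (rows); bars are standard errors, and open triangles are lower bounds for groups with 0 control counts. Values fall from 10.12 at the reference to -0.24 as the 3′ end is shortened, and stay at 9.57 when 1 base is missing at the 5′ end.

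Single sequences of let-7c-5p, as deposited with T for U, show the same steps. The final base is in capitals and marks where each 3′ end falls.
let-7c-5p, 22 nt: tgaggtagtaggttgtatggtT
let-7c-5p, 21 nt: tgaggtagtaggttgtatggT
let-7c-5p, 20 nt: tgaggtagtaggttgtatgG
let-7c-5p, 19 nt: tgaggtagtaggttgtatG
let-7c-5p, 5′ end short by 1: gaggtagtaggttgtatggtT
The 22 nt sequence had 282 and 240 counts in the oxidized control and 639939 and 540155 with the methyltransferase (log2 fold change 11.22 ± 0.473 SE). The 21 nt sequence had 771 and 508 against 159218 and 135785 counts (7.96 ± 0.441 SE), and the 20 nt sequence 247 and 174 against 8490 and 6755 (5.27 ± 0.410 SE). The 19 nt sequence had 533 and 343 against 450 and 587 counts, overlapping between the plasmids (0.39 ± 0.394 SE, edgeR adjusted p = 0.434). With the first base missing and the 3′ end of the 22 nt form there were 0 and 12 against 5164 and 4130 counts (9.53 ± 1.04 SE, and 8.38 or 15.06 when 1 of the control libraries was left out). In the oxidized control, then, the 21 nt and 19 nt forms each exceeded the 22 nt form, which was the most abundant with the methyltransferase.

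miR-375-3p stepped down in like manner. Its sequence was not matched in the RefSeq table and is given as deposited.
miR-375-3p, 22 nt: tttgttcgttcggctcgcgtgA
miR-375-3p, 19 nt: tttgttcgttcggctcgcG
miR-375-3p, 18 nt: tttgttcgttcggctcgC
miR-375-3p, 5′ end short by 3: gttcgttcggctcgcgtgA
The 22 nt form had 87 and 143 counts in the control and 93575 and 118526 with the methyltransferase (log2 fold change 9.88 ± 0.602 SE). The 19 nt form had 279 and 309 against 278 and 543 counts (0.59 ± 0.457 SE, edgeR adjusted p = 0.308), and the 18 nt form 229 and 410 against 100 and 355 (-0.41 ± 0.645 SE, and from -1.34 to 0.40 leaving out 1 library). The 19 nt form that lacks 3 bases at the other end had 0 and 0 against 90 and 68 counts, at least 27.2-fold higher. Forms of 19 nt of this miRNA thus had different values depending on which end was missing.

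The length at which the difference vanished was not the same for all miRNAs. miR-7a-5p, with a 23 nt reference, was already level at 20 nt (446 and 347 against 395 and 355 counts, log2 fold change 0.01 ± 0.372 SE). Its longer forms were higher, from 2.90 ± 0.431 SE at 21 nt to 7.84 ± 0.485 SE at 23 nt. Its 16 nt form (680 and 496 against 297 and 250 counts, -1.01 ± 0.361 SE, edgeR adjusted p = 0.0323) and its 18 nt form (313 and 345 against 121 and 164, -1.13 ± 0.435 SE, edgeR adjusted p = 0.0444) were the only 2 of 599 mature sequences tested singly that were called lower, where 5.47% of all sequences were. Both calls were lost with DESeq2 size factors, with equal tRNA counts and in the 4 oxidized libraries alone, where the 16 nt form was at -0.55 and the 18 nt form at -0.73, and the latter also by the DESeq2 Wald test (adjusted p = 0.0510). Leaving out any 1 of the 8 libraries ended the call of the 16 nt form, and that of the 18 nt form remained only without replicate 1 of the oxidized control. miR-7b-5p, with a 24 nt reference, was at 2.02 ± 0.462 SE at 21 nt and level at 20 nt (0.00 ± 0.608 SE). miR-16-5p, by contrast, was at 3.88 ± 0.478 SE at 20 nt, close to its 21 nt form at 4.08, and at -1.02 ± 0.556 SE at 19 nt (13 and 11 against 6 and 5 counts). Its 22 nt form was at 5.08 ± 0.414 SE (54 and 59 against 2389 and 1386 counts), below the 22 nt forms of let-7c-5p and miR-375-3p. miR-182-5p, with a 25 nt reference, was higher down to 20 nt (4.42 ± 0.714 SE, and 3.598 to 8.46 leaving out 1 library). It was not called at 19 nt (0.85 ± 0.675 SE, and -0.35 to 1.88 leaving out 1 library, the highest of these called). With total counts the forms that were level here lay lower, and the 21 nt forms of miR-7a-5p (-0.12) and miR-7b-5p (-0.999) were not called. Total counts also ended the calls of the 20 nt forms of miR-16-5p (0.87) and miR-182-5p (1.48).

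**Figure D5:**
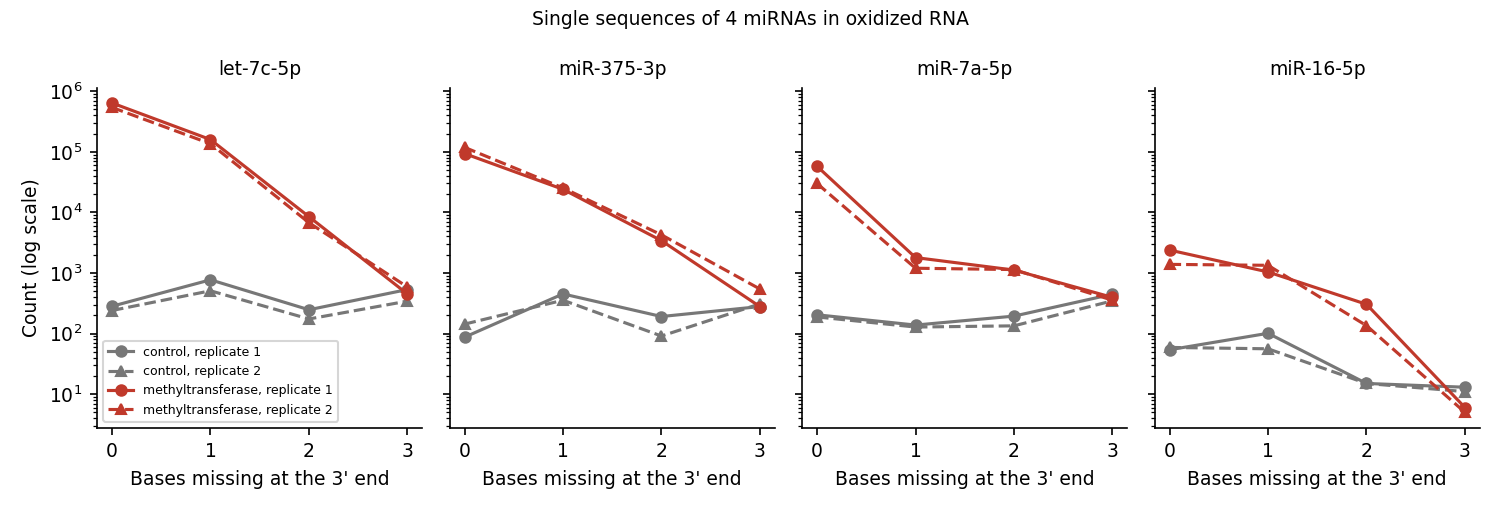
Counts of single sequences (y axis, log scale) by the number of bases missing at the 3′ end of the most abundant sequence (x axis) for let-7c-5p, miR-375-3p, miR-7a-5p and miR-16-5p in the 4 oxidized libraries; each line is 1 library. With 0 bases missing the plasmids are far apart, and with 3 missing the counts of the plasmids lie close together in each panel.

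Of 23 singly named miRNAs with at least 10 counts of 3′-shortened sequences (3 or more bases missing) in oxidized control RNA, 19 had control counts at the reference as well. In all 19 the reference had the larger scaled log2 ratio, by a median of 9.36 (5.64 in miR-16-5p to 13.0 in miR-129-5p). The minimum of 10 control counts applied to the shortened sequences and not to the reference. This selection favours a lower ratio for the shortened sequences and so a larger difference. The shortened sequences themselves had a median log2 ratio of 0.24 over the 23. They were highest in miR-182-5p (5.61), whose main shortened form is still 22 nt long, and in miR-423-5p (4.38).

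The 4 mature sums not called higher consisted of short sequences. The joint sum of let-7a-5p, let-7b-5p and let-7c-5p, a single 16 nt sequence, had 816 and 440 counts in the oxidized control and 426 and 402 with the methyltransferase (-0.46 ± 0.356 SE, edgeR adjusted p = 0.298). That of let-7a-5p and let-7c-5p, of 17 and 18 nt, had 755 and 507 against 397 and 672 counts (-0.08 ± 0.410 SE). That of let-7g-5p and let-7i-5p, of 16 nt, had 62 and 35 against 45 and 65 counts (0.35 ± 0.456 SE). The first and second of these sums were called lower with the upper quartile (-1.36 and -1.003) and by total-count scaling (-3.47 and -3.10). Reads this short lack the bases that tell these let-7 members apart. miR-203-3p, an epithelial miRNA, had 0 and 60 counts in the control, all in sequences of 16 to 19 nt, and 8 and 15 with the methyltransferase (-1.49 ± 1.40 SE, edgeR adjusted p = 0.390). It was called lower without replicate 1 of the oxidized control (-2.52) and higher without replicate 2 (6.47), so 1 library decided its direction.
let-7a-5p, let-7b-5p and let-7c-5p: tgaggtagtaggttgt
let-7g-5p and let-7i-5p: tgaggtagtagtttgt

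Without oxidation, no feature was called between the plasmids (0 of 7238, edgeR; by unadjusted p under 0.05, 65 mature miRNAs were lower and 0 higher, where 5.24% of all features were lower by that measure). The median log2 fold change of mature miRNAs was -0.77, with 164 of 172 below 0, as were 48.1% of all features, and a smallest adjusted p of 0.198. The DESeq2 Wald test called 15 mature miRNAs lower there, and a fit of the miRNA and tRNA sums alone called 56 lower. The latter fit held 194 features, 172 of them mature miRNAs. The share of all features called lower was not recorded for either, so these counts have no background. The difference of the plasmid effect between oxidized and non-oxidized RNA, tested as an interaction, was positive and called for 168 mature miRNAs and negative for 0, where 51% of all features were called positive. No tRNA isotype was called in that test (by unadjusted p under 0.05, 1 lower and 0 higher). Of the beta cell miRNAs, miR-375-3p had an interaction of 7.46 and miR-7a-5p of 5.997, and let-7c-5p was at 9.28 on the log2 scale.

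Across the 48 singly named miRNAs of the comparison above, the log2 fold change in oxidized RNA had a Spearman correlation of 0.33 with the log2 mean count in non-oxidized control RNA and of 0.30 with the share of short sequences in oxidized control RNA. These are descriptions over miRNAs of the same libraries, which are not independent replicates. Its correlation with the fold change in non-oxidized RNA was 0.46.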

How the data were processed

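Per the labels' protocols, libraries were prepared from total RNA with the QIAseq miRNA kit. The authors deposited 1 table with a raw read count per sequence and library, per the file headers; 16 other per-sample columns and the authors' fold changes and p-values were not used. Aligner, genome build and the use of molecular identifiers are not given in the sources used here. Its 12608 lines gave 11568 distinct sequences. Counts of sequences with a mature hit that names an arm were summed per miRNA (joint names kept apart) and those with a tRNA hit per isotype. Every other sequence entered singly, among them 11 with a miRNA name without an arm, 10273 features in all.

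Counts were fitted with edgeR 4.0.16 (R 4.3.3) in 1 model of 4 groups over 8 libraries. The fit used TMM factors from all sequences, filterByExpr and the robust quasi-likelihood test. It was also run on simulated counts with the effective library sizes given, which could not test the scaling. Features were called at 0.05 after Benjamini-Hochberg adjustment over all of them. SE is an approximate standard error, the absolute log2 fold change divided by the square root of the F statistic of its test. Permutation tests used scipy 1.17.1. A bound takes each oxidized control library at 3 counts, which is up to 0.00102% of the smallest library; bounds cover counting error only. Separate fits summed mature sequences by length or by end, or took each sequence singly; these groupings were chosen after seeing the data.

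Named miRNAs were the 10 most abundant with the methyltransferase, the 6 largest and 6 smallest fold changes of the comparison set, the 4 largest bounds, those not called and the 6 with most control counts; family lists were added. Sequences, families and single miRNAs shown beyond that rule, and the members and lists themselves, were chosen with earlier results of these data known. Same-numbered libraries share only a number. DESeq2 1.42.0, limma 3.58.1, other scalings, filters and left-out libraries were alternatives.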

Additional observations from a re-analysis of the deposited data

Results flagged for a closer look

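The difference between the plasmids was larger in oxidized than in non-oxidized RNA for 168 mature miRNAs by the interaction test (edgeR adjusted p under 0.05). That test called 51% of all features positive. Under the equal minimum in oxidized control RNA it called 27 of the 37 mature miRNAs tested. The share of all features called by the interaction test was not recorded under that minimum. In the plasmid comparison of oxidized RNA under it, 3.96% of all 3231 features were called higher. The plasmid comparison of mature miRNAs had a median log2 fold change of 7.13 in oxidized and -0.77 in non-oxidized RNA over all 172 tested.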

How the results depend on the processing

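Mature miRNAs called higher in oxidized RNA numbered 127 with total counts, 166 with the upper quartile, 146 of 150 in a fit of the 4 oxidized libraries alone, 165 to 170 under the other settings and 166 to 170 leaving out 1 library; an equal minimum in oxidized control RNA, added later, left 27 of 37 and fewer features tested (27 in the interaction). Called lower were 4 with total counts, 2 with the upper quartile and 0 to 1 leaving out 1 library (miR-203-3p); in the interaction 3 with total counts and 167 to 170 higher leaving out 1 library. tRNA isotypes called lower were 22 with total counts, 15 with the upper quartile, 2 with sums alone and 0 to 2 leaving out 1 library (tRNA-Met and tRNA-Ser without replicate 1 of the oxidized control); 0 to 1 were called higher (tRNA-Pro without replicate 2 of the oxidized methyltransferase libraries). In the interaction they were 22, 9, 2 and 0 to 1. Over all features in oxidized RNA, total counts called 2486 of 8618 higher and 4036 lower. The upper quartile called 3765 of 8390 higher and 1713 lower. The causes were not tested, beyond the scaling shift itself. Without oxidation 15 mature miRNAs were lower by the DESeq2 Wald test and 56 with sums alone, and 0 leaving out 1 library. The share of all features was not recorded for these settings without oxidation, nor for the interaction under the equal minimum. The plasmid difference in the log2 ratio of miRNA to tRNA counts after oxidation was 8.73 over sequences of 20 nt or more. It was 7.27 to 7.87 leaving out 1 library. The difference in reference against 3-base-shortened counts was 8.86 to 9.39. The standard deviation of fold changes was 3.73 with the most abundant sequence of each miRNA only, over the 29 miRNAs that then passed the minimum in place of 51. A replicate block gave 168 mature miRNAs higher and 0 lower and no tRNA isotype called; deviations of same-numbered libraries correlated between -0.06 and 0.57. Depth limits the fold of the 98 miRNAs with no oxidized control count.

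Values that changed sign: with total counts, let-7g-5p/let-7i-5p was at -2.67, miR-130b-3p at -0.052, miR-200a-3p at -0.39, tRNA-Asp at -2.87, tRNA-Glu at -2.81, 19 nt at -1.72 and 3′ ends short by 3 at -1.99; with the upper quartile, let-7g-5p/let-7i-5p was at -0.57, tRNA-Asp at -0.77 and tRNA-Glu at -0.71. With DESeq2 size factors let-7a-5p/let-7c-5p was at 0.085, 17 nt at 0.083 and shared sequences at 0.12; with equal tRNA counts they were at 0.039, 0.045 and 0.092. In the 4 oxidized libraries alone let-7a-5p/let-7c-5p was at 0.31, tRNA-Lys at 0.027, tRNA-Gly at 0.094, tRNA-Leu at 0.20, 17 nt at 0.31, 18 nt at 0.19, 3′ ends short by 4 or more at 0.17 and shared sequences at 0.35. miR-203-3p was at 1.61 with limma-voom, and miR-15b-5p at -0.77 under the equal minimum. Leaving out 1 library, let-7a-5p/let-7c-5p ranged from -0.26 to 0.36, tRNA-Asp from -0.042 to 0.48, tRNA-Val from -0.71 to 0.11, tRNA-Leu from -0.53 to 0.36, miR-203-3p from -2.52 to 6.47, 17 nt from -0.21 to 0.26, 18 nt from -0.45 to 0.18, 3′ ends short by 4 or more from -0.41 to 0.033 and shared sequences from -0.20 to 0.21. Single sequences, refitted later under the scaling, test, block and leave-one-out settings, changed sign as follows. With total counts the 19 nt forms of let-7c-5p, miR-375-3p and miR-182-5p were at -2.63, -2.43 and -2.14, miR-7a-5p at -0.12 (21 nt) and -3.01 (20 nt), and miR-7b-5p at -0.999 (21 nt) and -3.03 (20 nt). With the upper quartile the 19 nt forms were at -0.53, -0.36 and -0.0024, and the 20 nt forms of miR-7a-5p and miR-7b-5p at -0.90 and -0.93. Leaving out 1 library, miR-375-3p of 18 nt ranged from -1.34 to 0.40, miR-7a-5p of 20 nt from -0.079 to 0.39, miR-7b-5p of 20 nt from -0.67 to 1.14 and miR-182-5p of 19 nt from -0.35 to 1.88. None of the other values among the 89 recomputed changed sign; medians over lists and differences between miRNAs were not recomputed.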
